A study of Mus musculus with 4 samples.

Results

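Described here are genes for which the effect of targeting both cytochromes b5 in mouse liver could be compared between the fasted and refed state. For each gene, the log2 ratio of targeted over control TPM (a length-corrected share of all transcripts) was taken in the refed pair of libraries, and the same ratio in the fasted pair was subtracted from it. A difference of 1 means that the refed ratio was 2 times the fasted ratio, and a difference of -1 means the reverse. The same number is the refed over fasted log2 ratio in targeted liver minus that in control liver. Members were all genes in either of the 2 deposited tables with at least 1 TPM in at least 2 of the 4 libraries and a TPM above 0 in all 4. Of 943 genes in the tables, 766 met this rule, 541 from the fasted table alone, 168 from the refed table alone and 57 from both. A further 29 genes were listed at 0 TPM in 1 or more libraries, and 148 had at least 1 TPM in fewer than 2 libraries.

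There are 4 libraries of total liver RNA, with 1 library per group: control fasted, control refed, targeted fasted and targeted refed. Control livers are labelled wild type and carry a control hairpin (shNC), and targeted livers are labelled L_Cyb5b with a hairpin against Cyb5a (shCyb5a). A hairpin, control or targeting, is therefore named for both genotypes. The sources used here give no promoter or vector for either modification, no age or sex of the animals, no pooling, no hours of fasting or refeeding and no time of collection. With 1 library per group there is no replicate, no test of any difference and no estimate of the spread between mice. Ranges in parentheses are approximate 95% counting intervals of a difference, built from reads recovered from the deposited p-values, and cover counting error only.

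Cytochromes b5 are small haem proteins of the endoplasmic reticulum (Cyb5a) and the outer mitochondrial membrane (Cyb5b) that hand electrons to membrane enzymes, among them fatty acid desaturases, sterol-modifying oxidases and some cytochromes P450. In liver, feeding after a fast raises insulin and switches on glycogen storage and the synthesis of fatty acids and cholesterol through the transcription factors SREBP1c, ChREBP and SREBP2, while the programme of glucose production and fat oxidation is shut down. A gene far from 0 on the present scale is one whose response to this switch was measured as unlike in the 2 genotypes.

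The targeted genes themselves had small differences on the TPM scale as deposited. Cyb5a (gene ID 109672) was at 1686 TPM in control fasted, 207 in targeted fasted, 1274 in control refed and 166 in targeted refed liver. Its genotype ratio was 8.13-fold lower in the fasted and 7.67-fold lower in the refed pair, a difference of 0.09 (-0.22 to 0.39). Cyb5b (gene ID 66427) was at 72.4, 27.4, 174 and 49.5 TPM in the same order, a difference of -0.41 (-0.55 to -0.27). Centred on the median of all 766 genes, the differences would be -1.03 for Cyb5a and -1.53 for Cyb5b. Both genes were low in both targeted libraries, so the labels hold in either state.

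Over the 766 genes the difference ranged from -5.87 to 8.47 with a median of 1.12, and its middle 50 percent ran from -0.65 to 1.63. It was at least 1 in 418 genes (54.6%), called the positive end below, and at most -1 in 159 genes (20.8%), called the negative end. Centred on the median, 64 genes would be at least 1 and 234 at most -1, so the balance between the ends turns with where 0 is set. Each table lists only genes with a large ratio in its own state, and most fasted entries are lower in the targeted library, so neither end is a sample of all liver genes. Of the 382 genes listed only in the fasted table as lower, 84.8% lay at the positive end, and of the 159 listed only there as higher, 74.2% lay at the negative end. Among genes of the refed table alone, 80.5% of the 41 lower ones lay at the negative end and 54.3% of the 127 higher ones at the positive end. The sign of a member's difference is thus largely set by the table it came from, and these shares are the background for the gene groups below.

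The ratio in the state that did not choose a gene was less tied to that choice. The 382 genes listed only as lower in fasted targeted liver had a median log2 ratio of -1.05 there, and 306 of them (80.1%) stood above 0 in the refed pair, with a median of 0.43. Of the 159 genes listed only as higher in the fasted table, 63.5% stood above 0 in the refed pair, with a median of 0.15. Among the genes of the refed table alone, the fasted ratio was above 0 in 64.6% of the higher and in 61% of the lower ones.

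**Figure D1:**
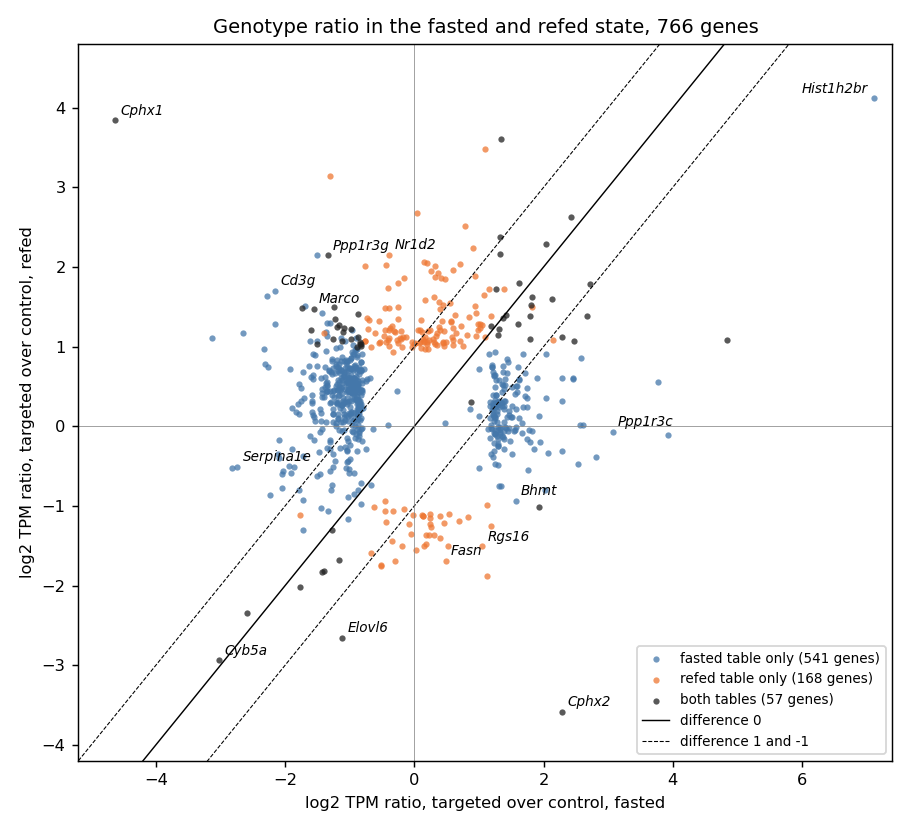
Log2 TPM ratio of targeted over control liver in the fasted pair (x axis) and the refed pair (y axis) for 766 genes, coloured by the table that lists them. Points above the upper dashed line have a difference of at least 1, points below the lower dashed line one of at most -1. Genes of the fasted table alone form the vertical bands and genes of the refed table alone the horizontal ones, and Cyb5a sits on the diagonal.

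The library that lay farthest from the other 3 was most often control fasted liver. At the positive end it was control fasted liver, lying above the rest, in 230 of 418 genes (55%), targeted fasted liver, lying below, in 93 (22.2%), control refed liver, lying below, in 71 (17%), and targeted refed liver, lying above, in 24 (5.74%). At the negative end control fasted liver lay below the rest in 81 of 159 genes (50.9%), targeted fasted liver above in 44 (27.7%), control refed liver above in 24 (15.1%) and targeted refed liver below in 10 (6.29%). The genotype ratio was larger in the fasted than in the refed pair in 77.3% of genes at the positive and 78.6% at the negative end. Genes of the fasted table alone, listed for a large fasted ratio, make up 324 of the 418 and 118 of the 159 genes. Those shares, and the place of the fasted libraries, therefore partly restate that choice. Since a gene that responds to food also moves in both refed libraries, 4 values cannot assign the difference to 1 library, and these counts are descriptive.

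**Figure D2:**
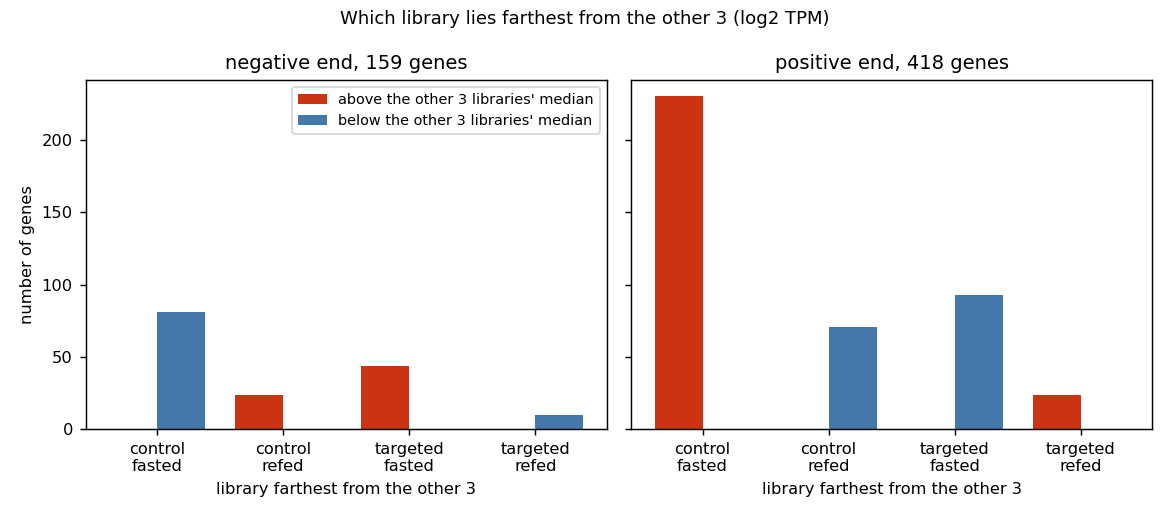
Number of genes (y axis) for which each library (x axis) has the log2 TPM farthest from the median of the other 3, at the negative end (159 genes) and the positive end (418 genes). Red bars count libraries above and blue bars libraries below the others. Control fasted liver makes the tallest bar in both panels, below the others at the negative end and above them at the positive end.

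Read as a response to food, the commonest pattern at the positive end was a decrease in control liver that was small or absent in targeted liver. In 202 of the 418 genes (48.3%) control liver was lower after food by at least 1 on the log2 scale and targeted liver changed by less than 1. In 69 genes (16.5%) targeted liver was higher by at least 1 after food while control liver changed by less than 1, and in 15 (3.59%) the genotypes went opposite ways by at least 1 each. At the negative end, 59 of 159 genes (37.1%) were higher by at least 1 after food in control liver only, 31 (19.5%) in both genotypes, and 34 (21.4%) were lower by at least 1 in targeted liver only.

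The negative end held genes of lipid synthesis. Of a list of 22 cholesterol synthesis genes, 7 are in the tables and met the rule. All 7 had a negative difference, 6 of them at most -1, with a median of -1.52 against 1.12 over all genes. The rest of the list is in neither table, so the pathway as a whole is not described. No gene of a list of 9 other SREBP2 targets is in the tables. All 7 come from the refed table alone, where they are listed as lower, so the sign follows from that listing and the 6 of 7 stands beside the 80.5% of that class. Their summed level was 152 TPM in control fasted, 191 in targeted fasted, 1411 in control refed and 652 in targeted refed liver. The genotypes were close in the fasted state, and the control refed library was farthest from the others in 6 of the 7 genes.

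Hmgcs1, the synthase that makes HMG-CoA at the head of the pathway, stood at 33.2 TPM in control fasted, 72.4 in targeted fasted, 320 in control refed and 161 in targeted refed liver. It was 2.18-fold higher in targeted liver when fasted and 1.99-fold lower when refed, the lowest difference of the list at -2.12 (-2.26 to -1.98). Food therefore went with a 9.63-fold higher level in control and a 2.22-fold higher level in targeted liver. Its control fasted library, not the control refed one, lay farthest from the others, which sets it apart from the other 6 members. Idi1, which isomerises the isoprenoid unit IPP, stood at 17.9, 25.7, 134 and 47.2 TPM in the same order, a difference of -2.03 (-2.22 to -1.84). Its fasted levels differed 1.44-fold and its refed levels 2.84-fold. Lower down the pathway, the squalene epoxidase gene Sqle had a difference of -1.40 (-1.76 to -1.03) and Lss, the lanosterol synthase, one of -1.52 (-1.78 to -1.26). Fdps, a prenyl transferase, had the smallest difference of the list, -0.74 (-0.93 to -0.56).

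SREBP2 is known to bind sterol response elements in promoters of this pathway. The 250 bases before the annotated start of Hmgcs1 are shown because they hold the one match to the element TCACNCCAC found among the lipid synthesis genes at this end, in capitals, beginning 137 bases before the start (RefSeq, GRCm38.p6, chr13:119690101-119690350, plus strand).
Hmgcs1: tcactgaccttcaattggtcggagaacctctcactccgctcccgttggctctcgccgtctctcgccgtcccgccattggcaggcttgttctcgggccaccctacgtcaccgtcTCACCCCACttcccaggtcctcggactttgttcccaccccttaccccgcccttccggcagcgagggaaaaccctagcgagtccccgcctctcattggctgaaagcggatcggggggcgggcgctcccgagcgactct
The element was searched on both strands of the window from 250 bases before to 50 after each start. It was found in 1 of 12 lipid synthesis genes at the negative end that have a window and in 1.44% of all 27025 genes. A missing match says only that these letters are not in that window.

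Genes of fatty acid and triglyceride synthesis showed the same arrangement of libraries. Of 25 listed genes, 11 are in the tables and 10 met the rule. All 10 had a negative difference and 8 were at most -1, with a median of -1.40. Of the 10, 8 are listed as lower in the refed table alone, a class of which 80.5% lay at the negative end, and the other two as lower in both tables, so the count is near what the listing gives. In 9 of the 10 the control refed library was farthest from the other 3. Fasn, the fatty acid synthase, stood at 6.44 TPM in control fasted, 9.01 in targeted fasted, 393 in control refed and 122 in targeted refed liver. Food thus went with a 61.0-fold higher level in control and a 13.5-fold higher level in targeted liver, a difference of -2.17 (-2.71 to -1.64). Thrsp, a regulator of lipogenesis induced by carbohydrate, stood at 55.4, 89.4, 1899 and 834 TPM in that order, a difference of -1.88 (-2.18 to -1.57). Acaca and Acly, which supply malonyl-CoA and cytosolic acetyl-CoA, had differences of -1.80 (-2.02 to -1.57) and -1.68 (-1.97 to -1.38). Acaca shares 52.6% of its 50-base words with another annotated gene and Idi1 21.3%, so part of their reads may be divided between copies. Acaca shares 52.6% of its 50-base words with another annotated gene and Idi1 21.3%, so part of their reads may be divided between copies.

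Elovl6, an elongase of saturated fatty acids, differed from these in the fasted state. It stood at 30.1 TPM in control fasted and 13.8 in targeted fasted liver, and at 167 and 26.6 TPM when refed. The genotype ratio was thus below 1 in both states and further below it after food, a difference of -1.53 (-1.74 to -1.32).

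**Figure D3:**
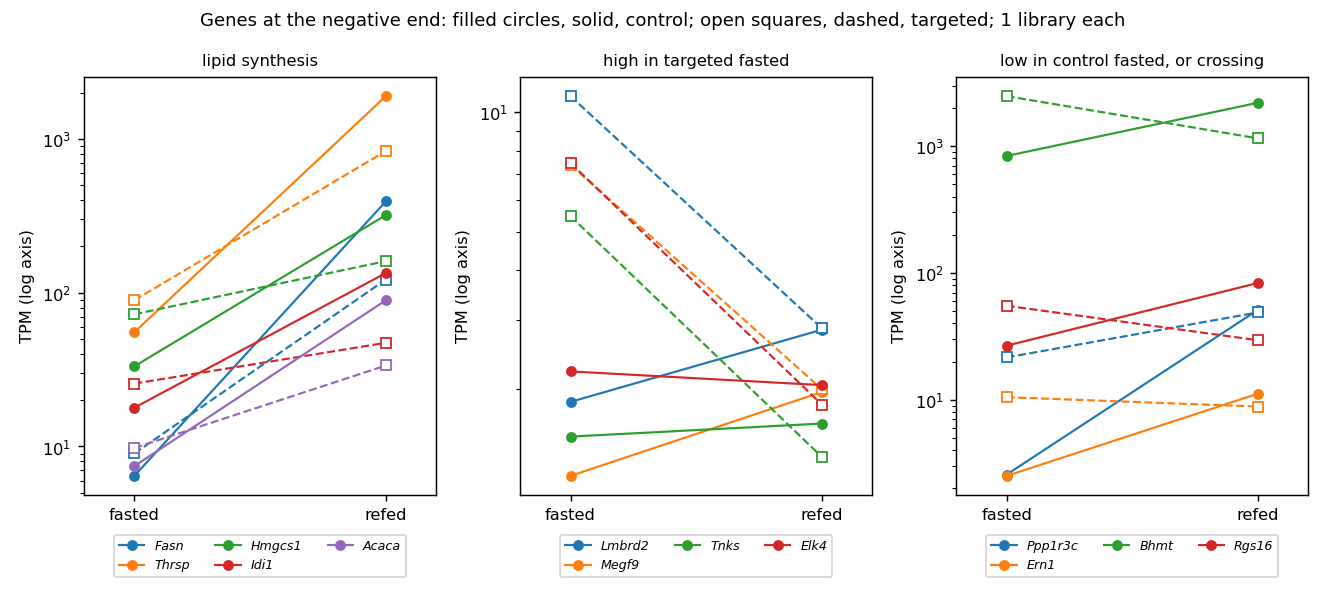
TPM on a log axis in the fasted and refed libraries for genes at the negative end. Filled circles with solid lines are control liver and open squares with dashed lines targeted liver, 1 library each. The 4 lipid synthesis genes drawn other than Hmgcs1 differ by less than 2-fold when fasted and have lower refed levels in targeted liver, Lmbrd2, Megf9, Tnks and Elk4 stand out in targeted fasted liver alone, and the lines of Bhmt and Rgs16 cross.

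Other genes at the negative end were set apart by the fasted libraries. Ppp1r3c, a subunit that directs protein phosphatase 1 to glycogen, stood at 2.57 TPM in control fasted, 21.6 in targeted fasted, 51.3 in control refed and 48.9 in targeted refed liver. The refed levels were nearly equal and the control fasted level was the low one, a difference of -3.14 (-3.50 to -2.78). Ern1, the endoplasmic reticulum stress sensor IRE1, showed the same pattern with 2.51, 10.5, 11.2 and 8.84 TPM and a difference of -2.40 (-2.75 to -2.05). In both genes targeted fasted liver was closer to the refed libraries than control fasted liver was.

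Another pattern was a level high in targeted fasted liver alone. Lmbrd2 stood at 1.86 TPM in control fasted, 10.99 in targeted fasted, 2.83 in control refed and 2.85 in targeted refed liver, a difference of -2.55 (-3.05 to -2.05). Megf9 stood at 1.21, 7.38, 1.97 and 2 TPM, a difference of -2.59 (-3.26 to -1.92). The tankyrase gene Tnks had a difference of -2.13 (-2.60 to -1.65) and Elk4, a transcription factor of the ETS family, one of -1.91 (-2.42 to -1.41). For these 4 genes the 3 libraries other than targeted fasted lay close together.

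Yet other genes showed a crossing of the genotypes. Bhmt, which remethylates homocysteine with betaine, stood at 837 TPM in control fasted, 2481 in targeted fasted, 2201 in control refed and 1151 in targeted refed liver. It was 2.96-fold higher in targeted liver when fasted and 1.91-fold lower when refed, a difference of -2.50 (-2.60 to -2.40). Rgs16, a brake on G protein signalling, stood at 26.7, 55.1, 83.5 and 29.4 TPM, a difference of -2.55 (-2.73 to -2.37). Onecut1, the hepatocyte transcription factor HNF6, stood at 1.71, 3.88, 6.14 and 2.58 TPM, a difference of -2.43 (-3.20 to -1.67), and shares 54.4% of its words with another gene. Food went with a higher level in control and a lower level in targeted liver for all 3. Rgs16 and Onecut1 are among 5 of the 766 genes (0.653%) that were at least 2-fold higher in targeted liver when fasted and at least 2-fold lower when refed, and 32 genes (4.18%) did the reverse.

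Of 19 listed genes of bile acid synthesis and transport, 6 met the rule, 3 were at most -1 and none at least 1, with a median of -0.73. The 3 of 6 stand beside 20.8% of all genes and 74.2% of genes listed only as higher in the fasted table. Cyp8b1 belongs to that class. Cyp8b1, the sterol 12-alpha-hydroxylase, stood at 177 TPM in control fasted, 527 in targeted fasted, 262 in control refed and 260 in targeted refed liver, a difference of -1.58 (-1.69 to -1.48). Abcb11, the bile salt export pump, had a difference of -1.17 (-1.23 to -1.10), and both had refed levels that were nearly equal. Cyp7a1, the rate-limiting enzyme of the classical route, was higher in targeted liver in both states and more so when fasted, a difference of -1.17 (-1.44 to -0.91). With FPKM in place of TPM the differences of Abcb11 and Cyp7a1 were -0.99 each.

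Leukocyte genes were among the 20 highest named genes of the positive end, and Cd3g and Rgs1 had the highest differences of those 20. Cd3g, part of the T cell receptor complex, stood at 5.69 TPM in control fasted, 1.27 in targeted fasted, 0.83 in control refed and 2.70 in targeted refed liver, a difference of 3.87 (2.40 to 5.33). Rgs1, a G protein regulator of lymphocytes, stood at 16.3, 2.59, 0.88 and 1.98 TPM, a difference of 3.82 (2.71 to 4.94). Marco, a scavenger receptor of macrophages, stood at 23.8, 8.08, 4.69 and 13.03 TPM, a difference of 3.03 (2.61 to 3.46), and the T cell and natural killer cell chemokine Ccl5 at 17.5, 6.85, 5.09 and 12.5 TPM, a difference of 2.65 (1.53 to 3.77). In all 4 genes the control fasted library was highest, and the order of the genotypes turned over after food.

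Markers of cells other than hepatocytes were counted together. Of 97 genes on 6 marker lists (endothelium, macrophages, lymphocytes, neutrophils, matrix-forming cells and blood), 33 met the rule and 31 of them had a difference of at least 1, none at most -1, with a median of 1.67. Of the 33, 31 are in the fasted table, in which these markers are listed as lower, so the count belongs beside the 84.8% of that class. Their summed level was 882 TPM in control fasted, 439 in targeted fasted, 391 in control refed and 583 in targeted refed liver. Control fasted liver was the highest library in 30 of the 33, and the refed ratio was above 0 in 32 of 33, beside 80.1% of all genes listed only as lower in the fasted table. In bulk liver, fewer cells of a type and less RNA per cell cannot be told apart. Without these 33 genes, 52.8% of the remaining 733 lay at the positive end, with a median of 1.07. Their part in the other differences was not tested.

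By cell type, 14 of 20 listed endothelial genes met the rule, and all 14 lay at the positive end, between 1.23 and 2.09. Counts by cell type stand beside 54.6% of all genes and 84.8% of genes listed only as lower in the fasted table. Oit3, a sinusoidal endothelial gene, stood at 18.9 TPM in control fasted, 6.94 in targeted fasted, 5.38 in control refed and 8.16 in targeted refed liver, a difference of 2.04 (1.68 to 2.41). The sinusoidal lectin gene Clec4g stood at 82.6, 37.1, 27.3 and 43.4 TPM, a difference of 1.83 (1.57 to 2.09). Of 18 listed macrophage genes 6 met the rule, all between 1.55 and 3.03. Of 21 listed lymphocyte genes 6 met it, all between 1.79 and 3.87, and Cd3d and Cd3g rest on fewer than 10 reads in 1 library. The rest of both lists is in neither table. Blood genes were represented by 3 haemoglobin genes, between 1.34 and 1.54, which share most of their sequence. The matrix and stellate cell list was unlike these. Its 3 genes had a summed level of 15.3 TPM in control fasted, 7.67 in targeted fasted, 29.3 in control refed and 28.0 in targeted refed liver, 1 of the 3 was at least 1, and targeted fasted liver was farthest from the rest in all 3. The one neutrophil gene, S100a9, stood at 15.3, 5.14, 8.88 and 11.04 TPM, a difference of 1.89, with targeted fasted liver again the farthest. No gene of the cholangiocyte or hepatocyte lists is in the tables, so hepatocyte identity was not checked with these lists.

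**Figure D4:**
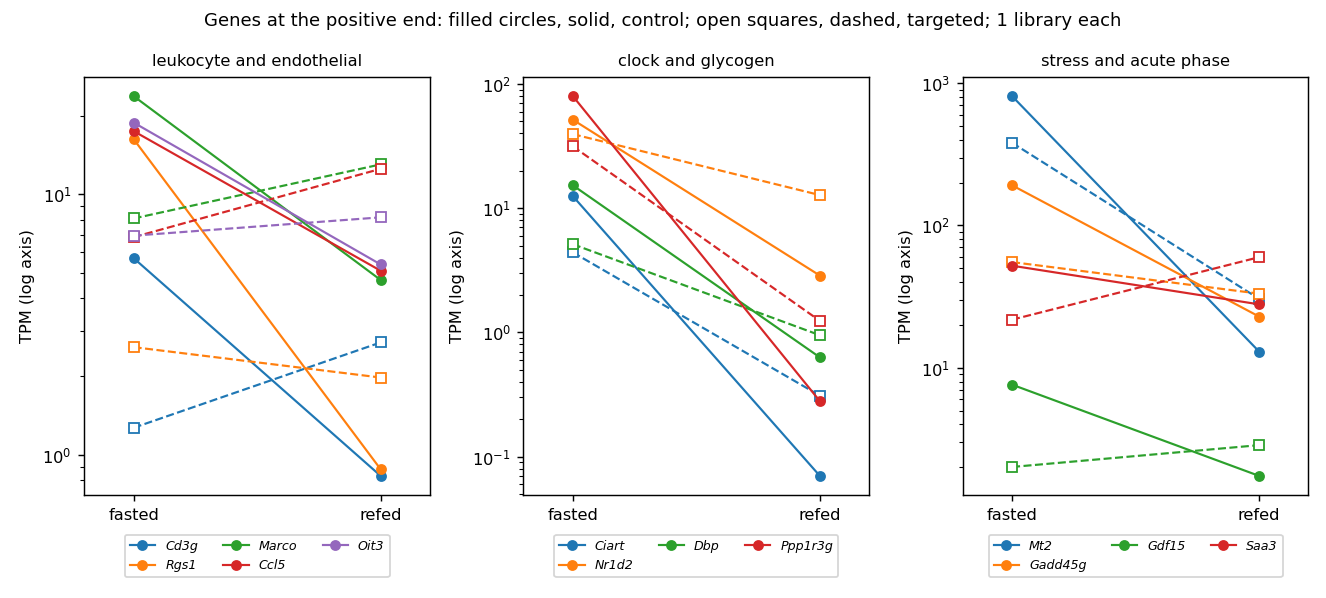
TPM on a log axis in the fasted and refed libraries for genes at the positive end. Filled circles with solid lines are control liver and open squares with dashed lines targeted liver, 1 library each. Leukocyte and endothelial genes are highest in control fasted liver and lowest or nearly so in control refed liver, and the clock and glycogen genes are lower after food in both genotypes, by less in targeted liver.

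Clock genes lay at both ends. Of 18 listed genes 5 are in the tables and met the rule, 4 at the positive and 1 at the negative end. Of all genes, 54.6% lay at the positive and 20.8% at the negative end. Ciart, a repressor of the clock, stood at 12.5 TPM in control fasted, 4.41 in targeted fasted, 0.07 in control refed and 0.31 in targeted refed liver, a difference of 3.65 (1.23 to 6.07) with about 1.33 reads in the lowest library. Nr1d2 and Nr1d1, which encode the haem-binding repressors REV-ERB beta and alpha, had differences of 2.54 (2.28 to 2.80) and 1.55 (1.15 to 1.95). Nr1d2 stood at 51.6, 39.5, 2.87 and 12.8 TPM, with control refed liver lowest. Dbp, an output factor of the clock, had a difference of 2.17 (1.02 to 3.31). Npas2, which activates clock genes as a partner of BMAL1, stood at 0.24, 0.92, 6.90 and 6.03 TPM, a difference of -2.13 (-3.11 to -1.15). Its control fasted level rests on about 11 reads, and with 1 TPM added to each value the difference was -0.80, short of -1. Among these 5 genes the activator was at one end and the repressors and Dbp at the other, and the rest of the list is in neither table. Since the time of day of collection is not given here, feeding and clock phase cannot be told apart.

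Clock activators bind the E-box CACGTG. The 250 bases before the start of Ciart are shown because they hold 3 matches, in capitals, beginning 116, 58 and 44 bases before the start (RefSeq, GRCm38.p6, chr3:95882229-95882478, minus strand).
Ciart: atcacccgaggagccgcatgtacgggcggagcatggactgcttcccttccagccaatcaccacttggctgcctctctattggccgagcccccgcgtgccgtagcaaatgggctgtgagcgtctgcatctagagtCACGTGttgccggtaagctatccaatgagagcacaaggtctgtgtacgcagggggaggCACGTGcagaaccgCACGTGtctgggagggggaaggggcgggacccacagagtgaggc
The window from 250 bases before to 50 after the start held this palindrome in 1 of the 5 clock genes at either end and in 8.09% of all 27025 genes.

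The insulin and glycogen list held a gene at each extreme. Of its 15 genes 4 met the rule, 1 of them at least 1 and 2 at most -1, with a median of -0.17. Of all genes, 54.6% were at least 1 and 20.8% at most -1. Ppp1r3g, another glycogen-targeting subunit of protein phosphatase 1, stood at 79.9 TPM in control fasted, 31.5 in targeted fasted, 0.28 in control refed and 1.24 in targeted refed liver, a difference of 3.49 (2.34 to 4.64). It stood opposite to Ppp1r3c, and in both genes the feeding response was smaller in targeted liver. Of 24 stress genes 6 met the rule, 3 of them at least 1 and 1 at most -1, with a median below the 1.12 of all genes. The metallothionein gene Mt2 stood at 810, 381, 13.01 and 30.5 TPM, a difference of 2.32 (1.81 to 2.83), and Mt1 had a difference of 1.92 (1.51 to 2.34). Gadd45g, a growth arrest gene on none of the lists, stood at 191, 55.3, 22.9 and 33.2 TPM, a difference of 2.33 (2.05 to 2.60). Gdf15, a stress hormone, had a difference of 2.64 (1.70 to 3.57), while the hormone gene Fgf21 lay at the other end at -1.66 (-2.50 to -0.81). Fgf21 had close fasted levels of 21.3 and 23.7 TPM and refed levels of 5.57 in control and 1.97 in targeted liver.

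Of the gluconeogenesis and fasting list, 5 of 21 genes met the rule, with a median of 1.03. Cebpb, Sik1 and Sds were at 1.10, 1.04 and 1.03, just below the median of all genes, and become negative when differences are centred on that median. Acute phase genes were mixed. Saa3 stood at 52.2 TPM in control fasted, 21.8 in targeted fasted, 27.9 in control refed and 59.8 in targeted refed liver, a difference of 2.36 (1.89 to 2.83). Hamp2, a hepcidin gene, was at -1.97 (-2.39 to -1.54), with a low control fasted level of 47.7 TPM beside 233, 104 and 129 TPM, while Hamp was at 0.81. Of the 50-base words of the Hamp2 transcript, 15.5% occur in another gene.

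Mitotic genes were set apart by the refed libraries. Of 40 listed genes, 17 are in the tables but 11 of these did not meet the rule, and 5 of the remaining 6 were at the positive end, beside 54.3% of all genes listed only as higher in the refed table. Top2a, the DNA topoisomerase of dividing cells, stood at 1.08 TPM in control fasted, 0.46 in targeted fasted, 0.63 in control refed and 1.60 in targeted refed liver, a difference of 2.58 (1.73 to 3.42). Targeted refed liver was the library farthest from the rest in 5 of the 6. These levels are low, and Ccnb2 rests on about 10 reads in its lowest library.

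Genes of drug metabolism were closer to 0 on the TPM scale as deposited, so on that scale the genotype ratio was more alike in both states. This turns with where 0 is set. Centred on the median of all genes, the list medians would be -1.53 for P450 genes and -0.75 for the glutathione transferase and NRF2 list. That of PPARA targets would be -0.72. Of 22 listed drug-metabolising P450 genes 9 met the rule, 1 of them at least 1 and none at most -1, beside 54.6% and 20.8% of all genes. Their median was -0.41 and their lowest value -0.97. The exception, Cyp2a5, had a difference of 1.18 (1.08 to 1.28) and shares 40.8% of its 50-base words with other genes. Of 21 genes of the glutathione transferase and NRF2 list 9 met the rule, with a median of 0.36. Of these 9, 1 was at least 1, beside the same 54.6% of all genes. That gene, Gsta1, had a difference of 1.73 (1.04 to 2.43) and shares 89.7% of its words. Of 29 PPARA targets 6 met the rule, 3 above 0 and 3 below, with a median of 0.40. Cyp4a31, Cyp4a14 and Acot1 lay between 1.30 and 1.70, while Fgf21 was at -1.66, the fatty acid transporter gene Cd36 at -0.73 and the lipid droplet gene Plin4 at -0.50. Cyp4a14 stood at 3674 TPM in control fasted, 4604 in targeted fasted, 9.84 in control refed and 36.0 in targeted refed liver, a difference of 1.55 (1.36 to 1.74) between a small fasted ratio and a refed ratio at low levels.

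Of 16 listed genes with higher levels in male liver, 6 are in the tables and 5 met the rule. Serpina1e, a member of the alpha-1-antitrypsin family, stood at 3358 TPM in control fasted, 501 in targeted fasted, 10275 in control refed and 7226 in targeted refed liver, a difference of 2.24 (2.03 to 2.44). All 5 male-biased genes that met the rule had a positive difference, with a median of 1.32, and all are listed only as lower in the fasted table, where 84.8% lay at the positive end. For these, targeted fasted liver was farthest from the rest in all 5, which partly restates that listing. Of 21 listed major urinary protein genes 11 met the rule, and 5 of the 11 were at least 1, beside 54.6% of all genes. Their median of 0.89 was below the 1.12 of all genes, and Mup9 was at -2.05 (-2.27 to -1.84). Mup genes share most of their sequence, 92.6% of 50-base words for Mup9, so the value of a single copy is uncertain.

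**Figure D5:**
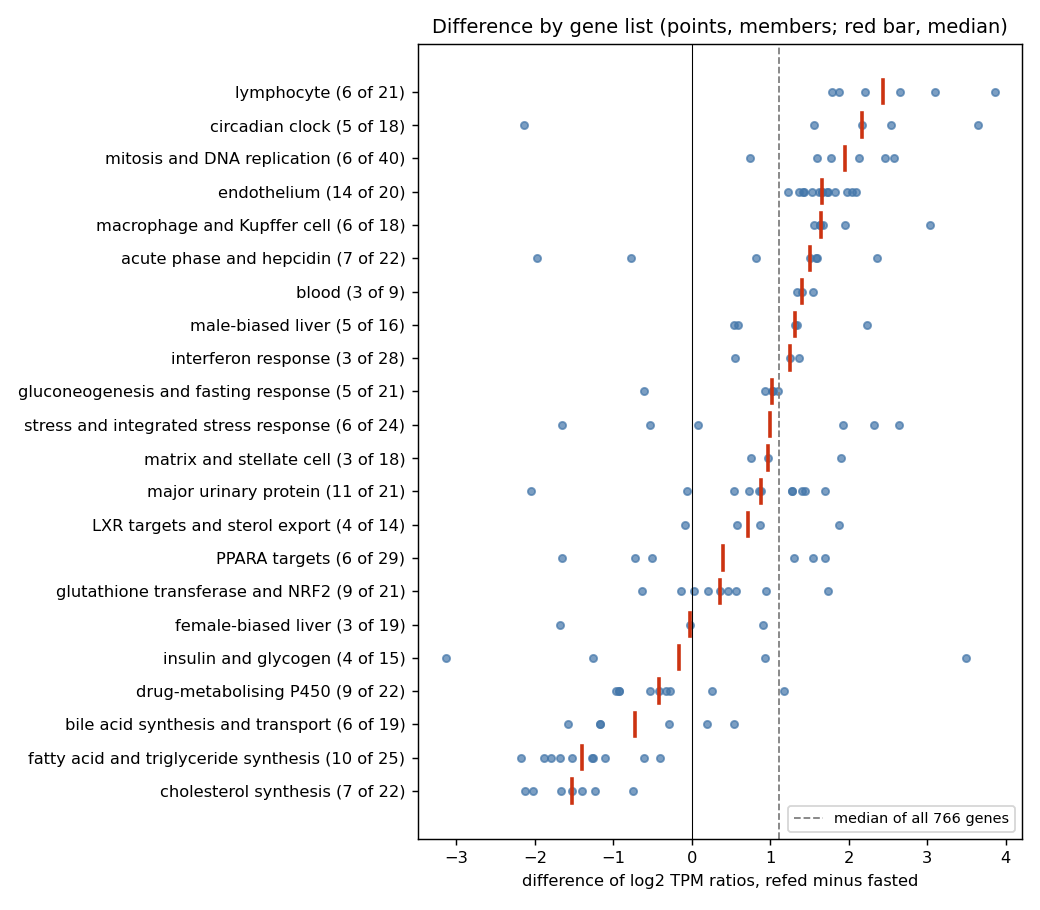
Difference of log2 TPM ratios, refed minus fasted (x axis), for members of gene lists with at least 3 members (y axis, with the number that met the rule of the number listed). Points are genes, red bars list medians and the dashed line the median of all 766 genes, 1.12. Cholesterol synthesis and fatty acid synthesis lie lowest, with medians of -1.52 and -1.40, and lymphocyte genes highest, with a median of 2.43.

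The extreme values of the whole distribution belonged to copies of one gene. Cphx1 and Cphx2 encode homeobox proteins, and every 50-base word of the longest Cphx1 transcript in GENCODE M21 also occurs in Cphx2. Cphx1 stood at 4.94 TPM in control fasted, 0.20 in targeted fasted, 0.22 in control refed and 3.15 in targeted refed liver, a difference of 8.47 (6.56 to 10.37). Cphx2 stood at 0.50, 2.44, 2.88 and 0.24 TPM, a difference of -5.87 (-7.46 to -4.28). In each library 1 of the copies was high and the other low. Added together they stood at 5.44, 2.64, 3.10 and 3.39 TPM, a difference of 1.17, close to the median of all genes. The sources used here do not say how reads were divided between copies, and both single values are uncertain. Among named genes with at least 5 TPM in 1 library, Hist1h2br was also uncertain, with 0.07 TPM in control fasted, 9.67 in targeted fasted, 0.08 in control refed and 1.39 in targeted refed liver and an interval from -7.17 to 1.19.

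Of the 577 genes at either end, the counting interval left out 0 in 573, and 29 had fewer than 10 reads in 1 library. These genes were chosen for a difference of at least 1 in size, from tables that list large ratios. Few intervals could then hold 0, so this count does not measure how small counting error is. The scale had a uniform effect. FPKM, the deposited value not rescaled to a fixed total, gave a difference higher by 0.18 at the median, with TPM at 1.504 times FPKM in targeted fasted liver and at 1.30, 1.23 and 1.251 times FPKM FPKM in control fasted, control refed and targeted refed liver. The sign changed in 8 of 766 genes.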

How the data were processed

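In all, 4 libraries of liver RNA, 1 per group, were compared. The authors deposited 2 tables of genes past a threshold, with TPM, FPKM, a log2 ratio and a p-value for each gene, per the file headers. For the aligner, genome build, gene annotation, threshold and the test behind the p-values: not given in the sources used here. The deposited TPM values were used for the difference of log2 ratios, with no pseudocount, and the deposited FPKM values as a check. No test was possible with 1 library per group, and no p-value was computed.

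Reads behind a gene were estimated by solving a comparison of 2 Poisson counts for the deposited p-value and log2 ratio, with FPKM carrying them to the other state. Solved reads were whole within 0.05 reads in 79.0% of fasted and 72.4% of refed genes. Library totals differed by at most 1.02 times by this estimate, and their absolute depth is not given here. For 41 genes the p-value was too small to solve and reads are a lower bound, so the interval is the widest allowed. Without molecular identifiers, reads do not count independent molecules.

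Members, gene lists and the naming rule were chosen with earlier results of these data known. Named were the 20 lowest and 20 highest genes with at least 5 TPM in 1 library, leaving out gene models, all genes with opposite ratios of at least 1, Cyb5a and Cyb5b, and up to 6 members of each list with a difference of at least 1 in size. Fdps, Hamp, Cd36, Plin4 and genes with a near-zero difference were added after their values were seen. Alternatives were FPKM, 1 TPM added, 2 other filters, centring on the median, a threshold of 1.5, repeated symbols left out, the deposited ratios and, chosen after seeing the data, leaving out markers of other cell types. Scripts used Python 3.11.15, numpy 2.4.6, pandas 2.3.3 and scipy 1.17.1 and were tested on simulated data. Promoters are from RefSeq (GRCm38.p6) and shared 50-base words from GENCODE M21.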

Additional observations from a re-analysis of the deposited data

Results flagged for a closer look

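In 37 genes the genotype ratio was at least 2-fold in each feeding state but in opposite directions. Each ratio rests on 1 library per group, and the difference between states was not tested. The log2 difference, refed minus fasted, is given in parentheses.

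Higher in targeted liver when fasted and lower when refed were 5 of 766 genes (0.653%), namely Cphx2 (-5.87), Gm2026 (-3.01), Zyg11a (-2.94), Rgs16 (-2.55) and Onecut1 (-2.43). In FPKM, 2 genes met the same rule.

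Lower when fasted and higher when refed were 32 genes (4.18%). The largest differences were those of Marco (3.03), Gpm6a (3.20), Slc15a2 (3.22), Clec10a (3.44), Ppp1r3g (3.49), Ciart (3.65), Rgs1 (3.82), Cd3g (3.87), Lat (3.92), Glipr1 (4.25), Xlr4a (4.45) and Cphx1 (8.47). Smaller differences were those of Cytip (2.55), Cdc42ep2 (2.55), Clec2h (2.56), Top2a (2.58), Cd34 (2.58), Ripply3 (2.60), Ccl5 (2.65), Fos (2.68), Podxl (2.74), Cav2 (2.81) and Asic5 (2.84). The smallest were those of Eml1 (2.14), Sla (2.20), Selplg (2.24), Ifi27l2a (2.28), Mt2 (2.32), Saa3 (2.36), Arl4c (2.44), Gng2 (2.44) and Sash3 (2.48). Xlr4a and Gm2026 share 69.5% and 100% of their 50-base words with other genes, so their values, like those of both Cphx copies, are uncertain.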

How the results depend on the processing

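No paired analysis was possible because each group has 1 library and no replicate numbers are shared. For the same reason no replicate could be left out. The median difference was 1.30 in FPKM, 0.87 with 1 TPM added and 0.00 once centred on itself. Centring left 64 genes at the positive end, against 418, and put 234 at the negative end, against 159. A threshold of 1.5 left 245 at the positive and 73 at the negative end. Genes lower when fasted and higher when refed, 32 as reported, numbered 7 with 1 TPM added, 49 with no filter, 8 with at least 1 TPM in all 4 libraries and 3 after centring. Genes of the reverse kind, 5 as reported, numbered 2 in FPKM, 2 with 1 TPM added, 3 with at least 1 TPM in all 4 libraries, 27 after centring and 3 with the deposited ratios. Centring turned Cebpb to -0.022, Sik1 to -0.0835, Sds to -0.0904, and the list medians of gluconeogenesis to -0.0904 and of stress to -0.12. It also changed the sign of Cyb5a, from 0.09 to -1.03, and of the list medians of LXR targets (0.72 to -0.40), glutathione transferases and NRF2 (0.36 to -0.75), PPARA targets (0.40 to -0.72), major urinary proteins (0.89 to -0.23) and matrix (0.97 to -0.15), while 122 of 126 named genes kept theirs. Of 124 named genes past 1 in size, 122 stayed past it in FPKM, 117 with 1 TPM added and 81 after centring. Counts at the positive end therefore depend on where 0 is set, which the tables cannot settle since they list only selected genes.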

Other observations

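Some genes had much the same genotype ratio in both feeding states on the TPM scale as deposited. Centring on the median of all genes would lower each of these differences by 1.12. Of 48 genes with a ratio of at least 1 on the log2 scale in the same direction in both, 17 had a difference under 0.25 in size, and they were chosen after their values were seen. Gstm3, a glutathione transferase, stood at 49.9 TPM in control fasted, 267 in targeted fasted, 55.5 in control refed and 342 in targeted refed liver, a difference of 0.20 (-0.02 to 0.42). Abcc3, an export pump for conjugates, stood at 27.2, 83.3, 8.93 and 31.2 TPM in the same order, a difference of 0.19 (0.03 to 0.35). Its level was lower after food in both genotypes, while the ratio between them changed little on this scale. Abcg8, one of the proteins that pump sterols into bile, stood at 23.3, 58.0, 12.7 and 29.7 TPM, a difference of -0.09 (-0.27 to 0.09). The quinone reductase gene Nqo1 had a difference of -0.14 (-0.87 to 0.60). In the opposite direction, Gatad1 stood at 23.8, 3.96, 13.5 and 2.66 TPM, a difference of 0.25 (-0.22 to 0.71), and the ferritin receptor gene Scara5 had a difference of -0.25 (-0.62 to 0.13).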
